A study of Ailuropoda melanoleuca with 25 samples.

Results

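In a giant panda (Ailuropoda melanoleuca) reprogramming series, messenger RNA of 10 of 22924 measured gene models peaked at stage II D8 among 7 groups. Primary fibroblasts (PF) were turned into giant panda induced pluripotent stem cells (GPiPSC) with episomal vectors, which carry the reprogramming genes without inserting into the genome, and RNA was sequenced in 25 libraries of 12 groups. The models were chosen by measured values: the mean at stage II D8 had to be at least 10 CPM (the estimated count per 1000000 of the library total) and at least 4 times the mean in each of LB PF, XR PF, stage I D8, stage I D24, LB GPiPSC and XR GPiPSC. Levels in these 7 groups are therefore given as a description with no test. The other 5 groups took no part in the choice. They are A83-01 D16 and control D16, sampled at day 16, and BACL LB GPiPSC, BACL-CHIR99021 and BACL control. LB GPiPSC had 3 libraries and every other group 2. The labels give fibroblasts as the source of all samples. They do not define LB, XR or BACL, or state to which of LB or XR the stage, D16, BACL control and BACL-CHIR99021 libraries belong and which reprogramming genes were used. Nor do they say whether CHIR99021 was added or withdrawn in BACL-CHIR99021, so its results are given by that label alone.

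Reprogramming runs through intermediate states in which the fibroblast programme is partly shut down and pluripotency genes are not yet stably on, and genes of other programmes can be on for a time in between. A83-01 is an inhibitor of the TGF-β type I receptor kinases and is used to limit mesenchymal gene activity in such cultures. CHIR99021 inhibits glycogen synthase kinase and so stabilises β-catenin, the effector of Wnt signalling. Gene names are not paired with the identifiers in the deposited tables, so no role can be given to a member, no pathway list could be counted, and neither the fibroblasts nor the GPiPSC could be checked against their markers.

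Library totals ran from 8627983 to 14890260 estimated counts, so that 3 counts corresponded to between 0.201 and 0.348 CPM, and intervals on counts cover counting error only. Replicates correlated at 0.963 to 0.998 in log2(CPM + 1) across models, and the stage II D8 pair at 0.994. LB GPiPSC replicate 3 stood nearer to XR GPiPSC (mean r of 0.990) than to LB GPiPSC replicates 1 and 2 (0.981). Whether replicates came from separate cultures is not stated, and p-values then measure only the spread between libraries, which may be technical. Fewer cells with a transcript and less transcript per cell cannot be told apart in these bulk samples.

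The members stood at 10.3 to 429 CPM at stage II D8, with a median of 26.0 CPM. The ratio of that mean to the highest of the 6 other groups ran from 4.05 to 6.67 with a median of 4.55, so none reached 8. In every member the lower stage II D8 library was above all 13 libraries of the 6 groups, by 2.09 to 5.17 times. The values formed no gap at the threshold. Just inside the ratio were evm.model.HIC_ASM_8.758.1 at 4.05 and evm.model.HIC_ASM_7.2022 at 4.12, and just outside were evm.model.HIC_ASM_1.90 at 3.84 and evm.model.HIC_ASM_1.953 at 3.82. Between 3 and 4 lay 10 models in all. At the minimum, evm.model.HIC_ASM_16.1088 and evm.model.HIC_ASM_20.142 passed with 10.3 and 10.7 CPM, and evm.model.HIC_ASM_3.1654 and evm.model.HIC_ASM_14.55 missed it with 9.38 and 7.37 CPM. The same rule set to stage I D8 found 116 models and set to stage I D24 found 56.

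**Figure D1:**
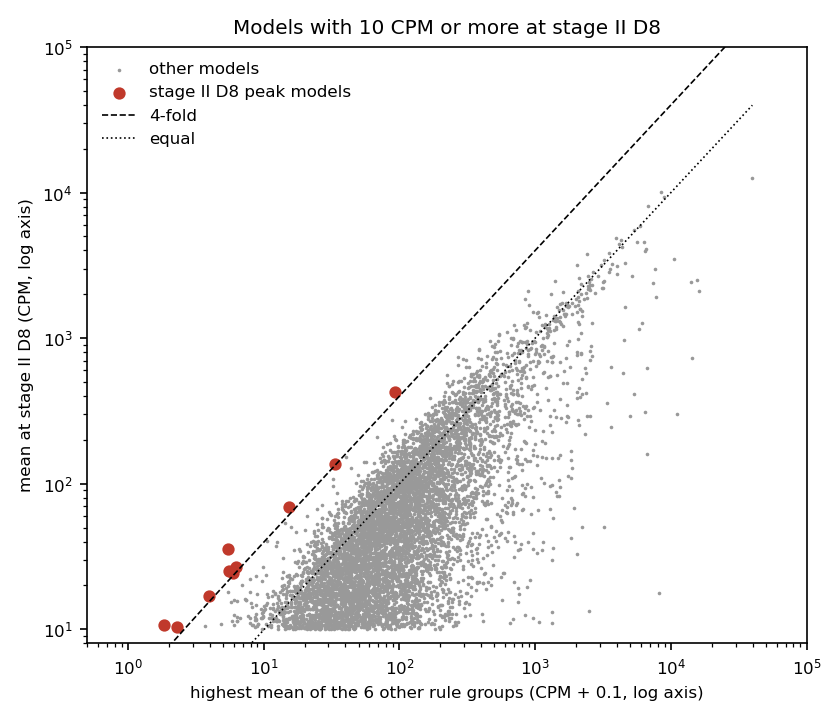
Mean at stage II D8 (vertical, CPM, log axis) against the highest mean among LB PF, XR PF, stage I D8, stage I D24, LB GPiPSC and XR GPiPSC (horizontal, CPM + 0.1, log axis), for the 7290 models with 10 CPM or more at stage II D8. The 10 peak models (red) lie on or just above the dashed 4-fold line, with ratios of 4.05 to 6.67.

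The number of models in the set moved with the scale. With library sizes scaled by TMM (trimmed mean of M-values, which corrects for library composition), 29 models met the rule, all 10 members among them. TMM factors were 0.664 and 0.747 at stage II D8, against 1.24 to 1.33 in the 5 GPiPSC libraries of LB and XR and 0.622 to 1.05 in the PF and stage I libraries, so this scaling raised stage II D8 most against GPiPSC. Members then had ratios of 4.02 to 11.0. On the deposited TPM values (per effective length and library total) 4 models met it, of which 3 are members, evm.model.HIC_ASM_13.1900, evm.model.HIC_ASM_4.1187 and evm.model.HIC_ASM_17.267. Of the other members, 4 were under 10 TPM, and 3 with 10 TPM or more fell short of the ratio. Among those under 10 TPM, evm.model.HIC_ASM_7.1656 and evm.model.HIC_ASM_7.2022 fell short of it as well, with 3.81 and 3.82. The TPM ratios of all 10 ran from 3.36 to 5.49.

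Single libraries also decided membership. Leaving out 1 library at a time gave 6 to 13 models, and evm.model.HIC_ASM_4.1187 and evm.model.HIC_ASM_7.1656 met the rule in all 15 cases, whereas evm.model.HIC_ASM_8.758.1 met it in 11. The lowest number came without stage II D8 replicate 2, which was the higher of the pair in 7 members. Without LB GPiPSC replicate 3, evm.model.HIC_ASM_7.2022 fell short and the number was again 10, with 9 members. Each library of stage II D8 stood at 4 times or more of all 13 libraries of the 6 other groups in the rule in 2 members, evm.model.HIC_ASM_4.1187 and evm.model.HIC_ASM_20.142. Replicates could also be read apart. The rule on replicate 2 of the 7 groups chose 16 models, and in replicate 1 of the same groups 4 of these reached a ratio of 4, 13 a ratio of 2, and 14 were above all 6 groups, with a median of 2.99. The rule on replicate 1 chose 3 models, and in replicate 2 their ratios ran from 2.74 to 5.17.

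**Figure D2:**
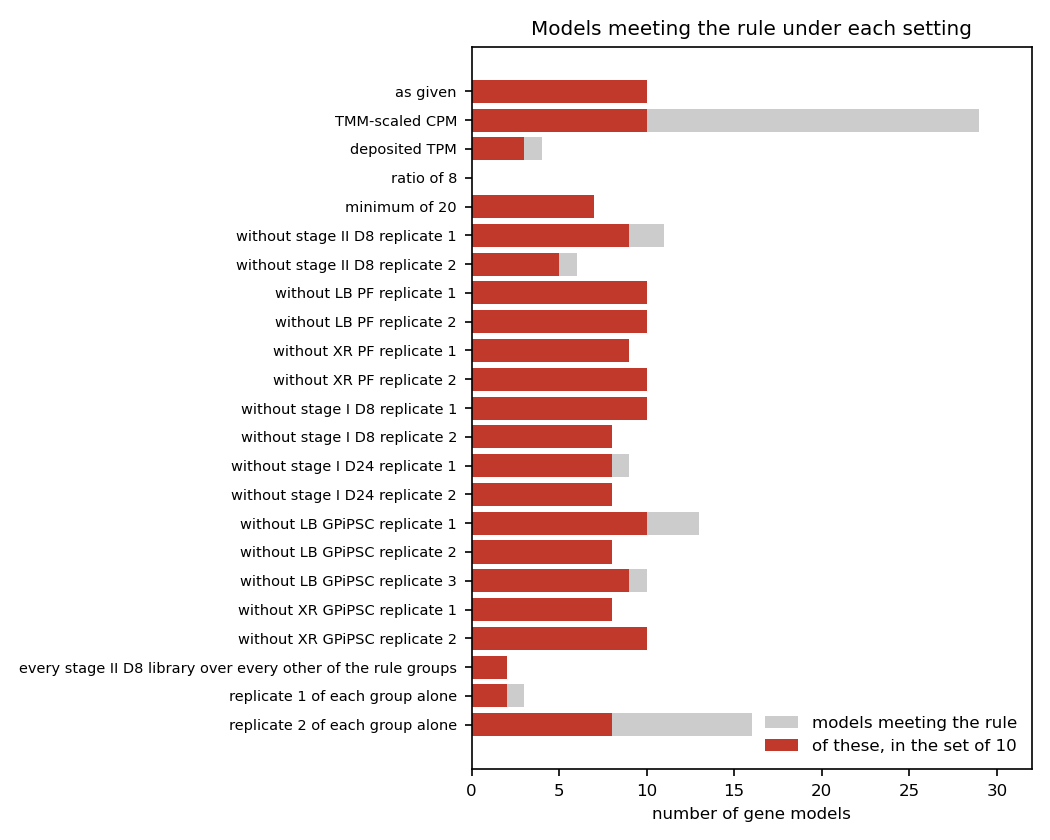
Number of gene models meeting the rule (horizontal) under each setting, with the part belonging to the 10 described models in red and the rest in grey; the setting with a ratio of 2, which gave 91 models, is not drawn. The number runs from 0 with a ratio of 8 to 29 with TMM-scaled CPM, and from 6 to 13 with 1 library left out.

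Per length, the most abundant member at stage II D8 was evm.model.HIC_ASM_9.966, with a mean of 293 TPM (SD 64.6, n = 2). It had 26.3 and 2.90 CPM in LB PF, 18.3 and 39.6 CPM in XR PF, 109 and 75.3 CPM at stage I D8, 96.8 and 48.0 CPM at stage I D24, and 356 and 503 CPM at stage II D8. In LB GPiPSC it had 80.4, 69.6 and 72.8 CPM and in XR GPiPSC 74.2 and 112 CPM. All 4 PF libraries were the low ones, and the stage II D8 mean was 4.61 times that of XR GPiPSC, the next group. The second by TPM, evm.model.HIC_ASM_8.758.1, had at most 0.984 CPM in PF, 3.43 and 2.38 CPM at stage I D8, 38.5 and 28.7 CPM at stage I D24 and 124 and 148 CPM at stage II D8. In LB GPiPSC it stood at 38.6, 9.52 and 41.7 CPM, replicate 2 being the low one, and in XR GPiPSC at 27.2 and 35.8 CPM. Stage I D24 and GPiPSC libraries overlapped, and stage II D8 lay above all of them.

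For 4 of the members, stage I D24 was the next highest of the 7 groups, and all 4 were under 1 CPM in every PF library. Besides evm.model.HIC_ASM_8.758.1 these were evm.model.HIC_ASM_17.267, evm.model.HIC_ASM_13.1900 and evm.model.HIC_ASM_16.1088. The model evm.model.HIC_ASM_17.267 had at most 2 counts in any PF or stage I D8 library, and stood at 3.53 and 7.42 CPM at stage I D24 and at 25.1 and 25.0 CPM at stage II D8. In LB GPiPSC it had 10.9, 1.29 and 0.934 CPM, replicate 1 being the high one, and in XR GPiPSC 0.802 and 1.07 CPM. Its PF and stage I D8 libraries lay below all others of these 7 groups. The model evm.model.HIC_ASM_13.1900 had 2.57 and 1.30 CPM at stage I D8, 5.04 and 2.62 CPM at stage I D24, 13.5 and 20.5 CPM at stage II D8, and 1.21 CPM or less in PF, LB GPiPSC and XR GPiPSC. The model evm.model.HIC_ASM_16.1088 had 0.234 and 0.288 CPM at stage I D8, 1.73 and 2.70 CPM at stage I D24, and 9.18 and 11.4 CPM at stage II D8. Its GPiPSC libraries, at 0.849 to 2.50 CPM, overlapped those of stage I D24.

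Another pair had its next highest level at stage I D8 and was lower at stage I D24 than at stage I D8 or stage II D8. The model evm.model.HIC_ASM_4.1187 had 0.163 and 0.232 CPM in LB PF, 2.60 and 2.01 CPM in XR PF, 4.83 and 5.91 CPM at stage I D8, 0.301 and 1.20 CPM at stage I D24, and 41.1 and 30.5 CPM at stage II D8. In GPiPSC it was at 0.381 to 1.13 CPM, and its ratio of 6.67 was the largest of the set. The model evm.model.HIC_ASM_16.2347 had 0.163 and 0.464 CPM in LB PF, 3.59 and 8.39 CPM in XR PF, 7.63 and 4.76 CPM at stage I D8, 2.78 and 1.20 CPM at stage I D24, and 25.8 and 28.1 CPM at stage II D8. It had 0 counts in all 5 libraries of LB GPiPSC and XR GPiPSC. In both models the XR PF libraries lay above the LB PF libraries.

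In 4 members, evm.model.HIC_ASM_9.966 among them, LB GPiPSC or XR GPiPSC came next after stage II D8. The model evm.model.HIC_ASM_7.1656 had 8.40 and 0.232 CPM in LB PF, which disagreed, 6.69 and 9.07 CPM at stage I D24, 64.0 and 73.5 CPM at stage II D8, 9.68 to 10.3 CPM in LB GPiPSC and 13.3 and 17.1 CPM in XR GPiPSC. The model evm.model.HIC_ASM_7.2022 was under 1 CPM in PF and stage I, had 25.5 and 23.0 CPM at stage II D8, and 11.0, 2.10 and 4.50 CPM in LB GPiPSC, replicate 1 being the high one. The model evm.model.HIC_ASM_20.142 had 0 counts in all 6 PF and stage I D8 libraries, 0.134 and 1.02 CPM at stage I D24, 9.00 and 12.4 CPM at stage II D8, and 1.70 and 1.76 CPM in XR GPiPSC. These last 2 models were low throughout stage I, so that no earlier sampling stood near their stage II D8 level.

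**Figure D3:**
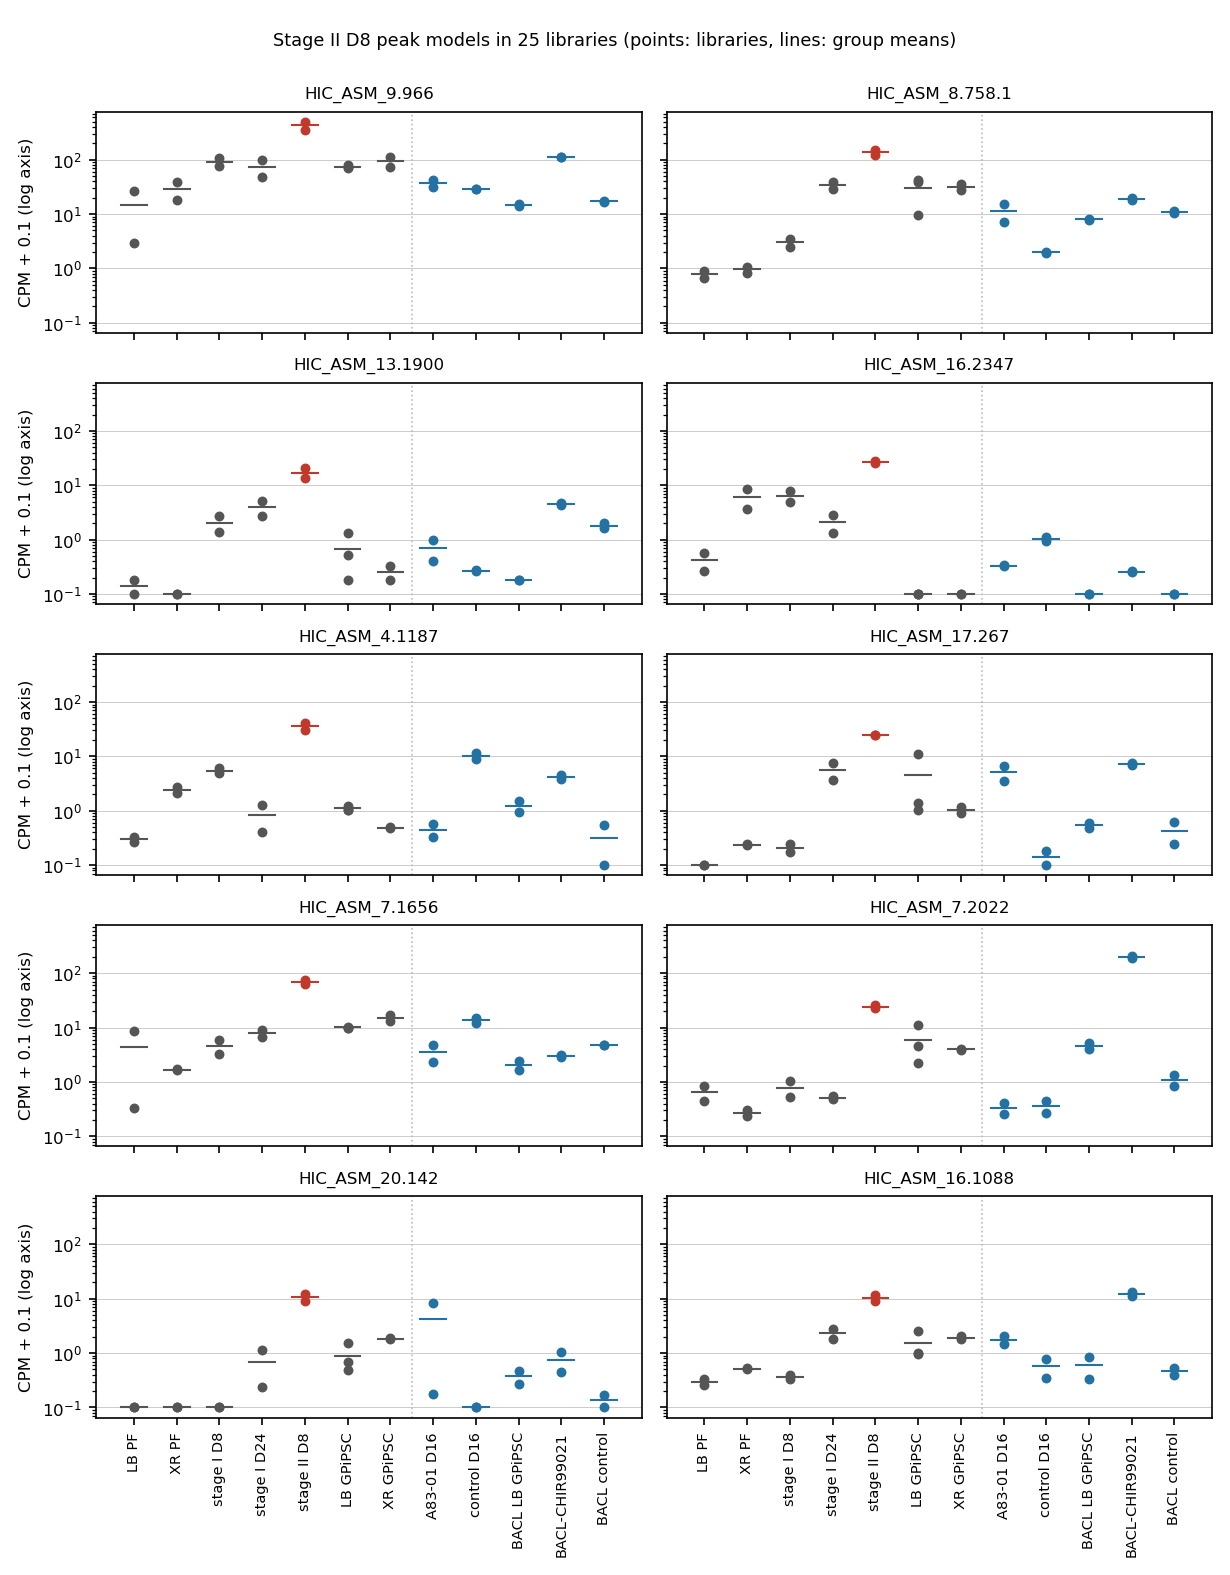
Level of each peak model (CPM + 0.1, log axis) in the 12 groups, with a point per library and a line at the group mean; stage II D8 is red, the other groups of the rule grey and the 5 groups outside the rule blue. Stage II D8 is the highest of the rule groups in every panel, while BACL-CHIR99021 stands above it for HIC_ASM_7.2022 and HIC_ASM_16.1088.

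Whether the members differed between BACL-CHIR99021 and BACL control was tested in 4 libraries, which share no library with the rule. In BACL-CHIR99021 5 of the 10 were higher and 0 lower, where 16.1% of the 17225 models tested were called, 11.7% higher and 4.43% lower (edgeR's quasi-likelihood test, adjusted p under 0.05). At an unadjusted p under 0.05 the members' counts were the same, 5 and 0, where 4820 of 17225 models passed in either direction. DESeq2 also called 5 and 0, where 2169 of 21578 models were higher and 1072 lower. The largest change was in evm.model.HIC_ASM_7.2022, which had 192 and 203 CPM in BACL-CHIR99021, against 0.727 and 1.24 CPM in BACL control. Its log2 fold change was 7.50 ± 0.62 (SE, adjusted p = 1.58e-07 by edgeR) and its level was 814% of the stage II D8 mean.

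The other 4 that rose stood at 11.4% to 117% of their stage II D8 means. The model evm.model.HIC_ASM_16.1088 had 12.9 and 11.2 CPM in BACL-CHIR99021, against 0.291 and 0.439 CPM in BACL control (log2 fold change 4.88 ± 0.56 SE, adjusted p = 6.29e-06 by edgeR), the member at 117%. The model evm.model.HIC_ASM_17.267 had 7.40 and 6.87 CPM, against 0.145 and 0.513 CPM (4.26 ± 0.93 SE, adjusted p = 0.00355), and evm.model.HIC_ASM_4.1187 had 3.82 and 4.38 CPM, against 0 and 0.439 CPM (4.03 ± 0.60 SE, adjusted p = 9.43e-05). These models were at 28.5% and 11.4%. The model evm.model.HIC_ASM_9.966 had 112 CPM in both BACL-CHIR99021 libraries, against 17.1 and 16.9 CPM in BACL control (2.59 ± 0.64 SE, adjusted p = 0.00818), or 26.1% of its stage II D8 mean. The BACL-CHIR99021 libraries of each of the 5 lay above both BACL control libraries. This does not set the 5 apart, because the libraries of these groups did not overlap in any of the 10 members. The share of all models without overlap was not counted, so nothing is concluded about the 10 from this. Among them, evm.model.HIC_ASM_16.2347 had 3 counts or fewer in each of these libraries.

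The members that were not called differed in level. The model evm.model.HIC_ASM_13.1900 had 4.15 and 4.53 CPM in BACL-CHIR99021, against 1.89 and 1.54 CPM in BACL control (adjusted p = 0.224 by edgeR), and evm.model.HIC_ASM_8.758.1 had 17.7 and 19.6 CPM, against 10.2 and 11.3 CPM (adjusted p = 0.405). The model evm.model.HIC_ASM_7.1656 had 2.76 and 3.02 CPM, against 4.65 and 4.76 CPM, with a log2 fold change of -0.83 ± 0.67 (SE). The model evm.model.HIC_ASM_20.142 had 17 counts in the BACL-CHIR99021 libraries together and 1 in BACL control, a CPM ratio of 18.0 with a 95% counting interval of 2.86 to 762, and evm.model.HIC_ASM_16.2347 had 4 and 0 counts. The median fitted log2 fold change of the 10 was 3.73, against 0.00 over all models tested. Its middle values were those of evm.model.HIC_ASM_20.142 (3.68) and evm.model.HIC_ASM_16.2347 (3.78), so it rests on these few counts. Neither model passed the filter on low counts in the 4 compared libraries alone. Raising groups under 3 counts per library to 3 counts gave a median log2 ratio of mean CPM of 2.15.

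The test shared its estimate of spread over all 25 libraries. With the 4 compared libraries alone, 8 of the 10 members could be tested and 8 were called, 7 higher and 1 lower, but 10609 of 14784 models were called in that fit, 51.3% of them higher. Without BACL control replicate 1, evm.model.HIC_ASM_17.267 and evm.model.HIC_ASM_9.966 were no longer called, and without replicate 2 evm.model.HIC_ASM_9.966 was not. The log2 fold change of evm.model.HIC_ASM_9.966 was 2.57 and 2.55 in these fits. They leave 1 library in BACL control, and fewer of all models were called in them than in the fit of all libraries. The BACL control libraries also set the size of 2 changes. For evm.model.HIC_ASM_17.267 the log2 fold change was 3.62 without BACL control replicate 1 and 5.35 without replicate 2. For evm.model.HIC_ASM_4.1187 it was 3.04 without replicate 1, and without replicate 2, which held all 6 of its BACL control counts, the fitted 8.37 is set against 0 counts and depends on the prior count. In the list of the same rule at stage I D24, 9 of 56 models were higher and 4 lower in BACL-CHIR99021, and at stage I D8 26 of 116 were higher and 6 lower, and these shares were not tested against that of the 10. Of all calls 72.5% were higher with edgeR in all libraries, and 85.2% with limma-trend on log2(TPM + 0.1).

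**Figure D4:**
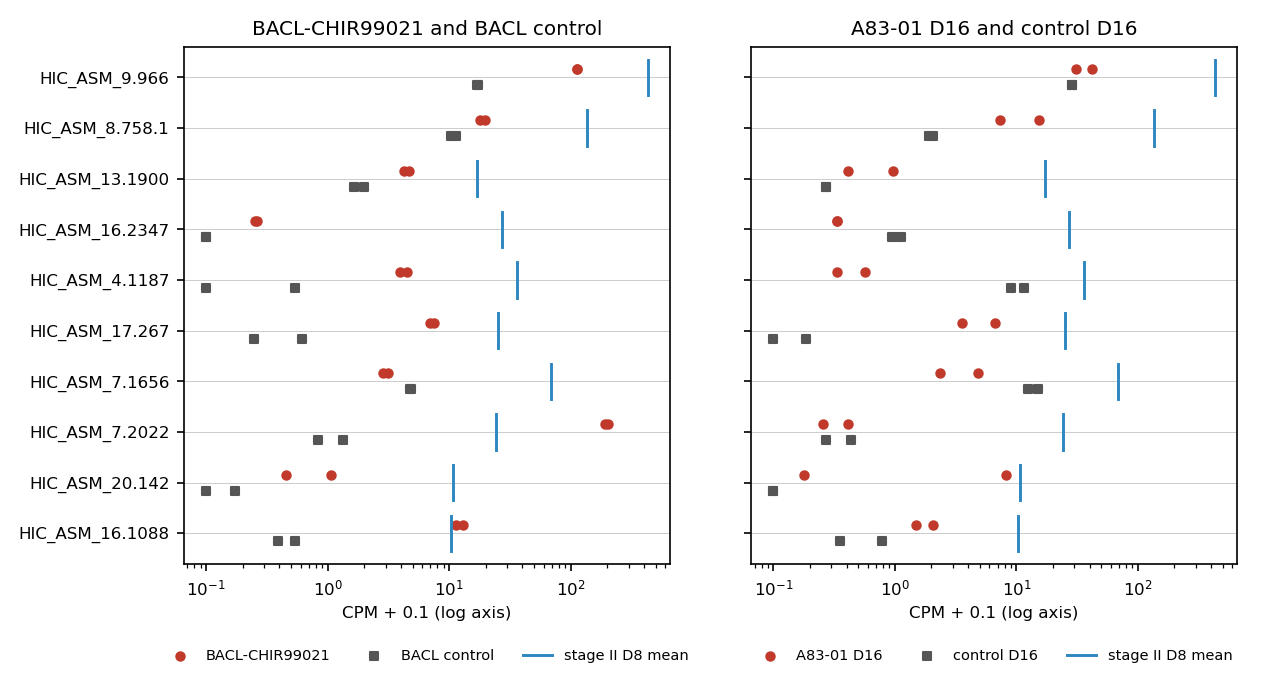
Level of each peak model (CPM + 0.1, log axis) in BACL-CHIR99021 (red) and BACL control (grey) on the left and in A83-01 D16 (red) and control D16 (grey) on the right, with a point per library and a blue line at the stage II D8 mean. In BACL-CHIR99021 HIC_ASM_7.2022 lies to the right of its blue line at 192 and 203 CPM, as does HIC_ASM_16.1088 at 12.9 and 11.2 CPM, above its stage II D8 mean of 10.3 CPM.

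The same question was asked of A83-01 against its control at day 16, again in libraries outside the rule. In A83-01 D16 3 of the 10 members were higher and 1 lower, where 6.22% of all models tested were called, 4.19% higher and 2.04% lower (edgeR, adjusted p under 0.05). At an unadjusted p under 0.05, 4 members were higher and 3 lower, where 2758 of 17225 models passed in either direction. In the 4 compared libraries alone, 7 of the 10 passed the filter on low counts. Those that did not were evm.model.HIC_ASM_20.142, evm.model.HIC_ASM_7.2022 and evm.model.HIC_ASM_13.1900, and evm.model.HIC_ASM_20.142 is 1 of the 3 called higher. The lower one, evm.model.HIC_ASM_4.1187, had 0.471 and 0.232 CPM in A83-01 D16, against 11.4 and 8.89 CPM in control D16, with a log2 fold change of -4.97 ± 0.56 (SE, adjusted p = 2.30e-05 by edgeR). Control D16 was thereby the group outside the rule in which this model stood highest, at 28.3% of its stage II D8 mean. It was called lower in all 12 alternatives to this test, with adjusted p-values of 4.29e-27 to 0.00119.

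The 3 higher members were low in control D16. The model evm.model.HIC_ASM_17.267 had 6.52 and 3.48 CPM in A83-01 D16, against 0 and 1 counts in control D16, a CPM ratio of 117 with a 95% counting interval of 20.7 to 4671 (adjusted p = 0.00534 by edgeR). The model evm.model.HIC_ASM_8.758.1 had 15.3 and 7.20 CPM, against 1.94 and 1.80 CPM, with a log2 fold change of 2.41 ± 0.54 (SE, adjusted p = 0.0101). The third, evm.model.HIC_ASM_20.142, had 8.19 CPM in A83-01 D16 replicate 1 and 0.0774 CPM in replicate 2, which is 1 count, against 0 counts in both control D16 libraries, and its mean was at least 16.2-fold higher with the control set at 3 counts per library. Its adjusted p of 0.0298 was 0.788 without A83-01 D16 replicate 1, and with the replicate number as a block it was 0.0520, so this call rests on 1 library.

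The remaining 6 did not pass. The model evm.model.HIC_ASM_7.1656 had a mean of 3.48 CPM (SD 1.74, n = 2) in A83-01 D16, against 13.6 CPM (SD 1.92, n = 2) in control D16, with no overlap (log2 fold change -2.14 ± 0.66 SE, adjusted p = 0.0623 by edgeR, and 0.0173 by DESeq2). The model evm.model.HIC_ASM_16.1088 had 1.96 and 1.39 CPM, against 0.254 and 0.684 CPM (adjusted p = 0.108). The model evm.model.HIC_ASM_9.966 had 31.1 and 42.2 CPM, against 28.7 CPM in both control D16 libraries (adjusted p = 0.962). The other 3 had at most 1.03 CPM in any of the 4 libraries. The median log2 fold change of the 10 was 0.90, against 0.04 over all models tested, and it joins values of both signs. Its middle values were those of evm.model.HIC_ASM_9.966 (0.22) and evm.model.HIC_ASM_13.1900 (1.57), and the latter had 15 counts in A83-01 D16 and 4 in control D16. In the fit of the 4 compared libraries, where 7 members were tested, the median was 0.19, against -0.01 over all models tested. Without control D16 replicate 1 or 2, neither evm.model.HIC_ASM_17.267 nor evm.model.HIC_ASM_8.758.1 was called. The log2 fold change of evm.model.HIC_ASM_8.758.1 was then 2.46 or 2.36, and that of evm.model.HIC_ASM_17.267 was 5.56 or, against 0 counts, 9.01. Without A83-01 D16 replicate 1, evm.model.HIC_ASM_8.758.1 was again not called, with a log2 fold change of 1.85. Such fits leave 1 library in a group, and fewer of all models were called in them than in the fit of all libraries. Of all calls 67.3% were higher with edgeR in all libraries, against 57.2% with limma-trend on log2(TPM + 1), 49.1% with the 4 compared libraries alone, where the larger share was lower, and 81.2% without A83-01 D16 replicate 2. Limma-trend on log2(TPM + 1) called 2 members higher and 3 lower, where 672 of 17225 models were higher and 503 lower. The 4 libraries alone called 2 higher and 2 lower of the 7 members tested, where 1096 of 14987 models were higher and 1137 lower.

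Side by side, evm.model.HIC_ASM_17.267 was higher in both BACL-CHIR99021 and A83-01 D16, each against its own control. The model evm.model.HIC_ASM_4.1187 was higher in BACL-CHIR99021 and lower in A83-01 D16. None of the 10 was called lower in both comparisons by edgeR. The models evm.model.HIC_ASM_7.2022, evm.model.HIC_ASM_16.1088 and evm.model.HIC_ASM_9.966 were called in BACL-CHIR99021 and not in A83-01 D16, and evm.model.HIC_ASM_8.758.1 and evm.model.HIC_ASM_20.142 the reverse, but the difference between the comparisons was not tested. All 10 members passed the filter on low counts in the fit of all 25 libraries, which their stage II D8 libraries alone can satisfy. In the 4 compared libraries alone, 7 passed it for A83-01 D16 and 8 for BACL-CHIR99021.

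Outside the rule the members were mostly low. Their median level was 6.67% of the stage II D8 mean in A83-01 D16, 2.42% in control D16, 3.01% in BACL LB GPiPSC, 19.6% in BACL-CHIR99021 and 3.75% in BACL control. Over the 7290 models with 10 CPM or more at stage II D8 the same medians were 83.0%, 73.5%, 99.9%, 101% and 96.2%. Members, unlike the 7290, had to stand at least 4 times lower in the 6 other groups of the rule. That choice favours low values in groups that resemble those 6, so the gap between the medians is not a separate result. At 10 CPM or more stood 2 members in A83-01 D16, 3 in control D16, 1 in BACL LB GPiPSC, 4 in BACL-CHIR99021 and 2 in BACL control. The shares of the 7290 models at that level were 90.9%, 86.3%, 89.0%, 92.6% and 88.5%, in the same order. In BACL LB GPiPSC the member nearest its stage II D8 level was evm.model.HIC_ASM_7.2022, with 4.02 and 5.10 CPM or 18.8%, and next was evm.model.HIC_ASM_8.758.1, with 8.19 and 7.53 CPM or 5.78%. In BACL control evm.model.HIC_ASM_13.1900 and evm.model.HIC_ASM_8.758.1 came nearest, at 10.1% and 7.89%. In control D16 the second after evm.model.HIC_ASM_4.1187 was evm.model.HIC_ASM_7.1656, at 19.8%.

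The members lay on 8 scaffolds, and none had another member within 2 model numbers on its scaffold. A list of 10 among 22924 models leaves little room for such neighbours, so nothing is concluded from this. Of 33 neighbouring models within that distance, 25 had 1 CPM or more at stage II D8, and their ratio to the highest of the 6 groups had a median of 1.22, with 4 at 2 or more. The highest was 6.08, in evm.model.HIC_ASM_16.2345, next but one to evm.model.HIC_ASM_16.2347, which stood at 7.25 CPM at stage II D8 and so missed the minimum. The models evm.model.HIC_ASM_7.1654 and evm.model.HIC_ASM_7.1655, beside evm.model.HIC_ASM_7.1656, had ratios of 2.26 and 2.96 and stood at 8.47 and 4.52 CPM at stage II D8. Coding lengths ran from 378 bases in evm.model.HIC_ASM_13.1900 to 3543 bases in evm.model.HIC_ASM_7.1656, with a median of 1071, against 1302 over the 7290 models with 10 CPM or more at stage II D8.

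Estimated counts can be divided between near-identical models, and then need not be whole. In 8 members they were whole (within 0.01) in all 25 libraries, as in 93.8% of the 7290 models. The exceptions were evm.model.HIC_ASM_20.142, whole in 11 libraries, and evm.model.HIC_ASM_13.1900, whole in 23. The model evm.model.HIC_ASM_13.1900 shares its coding length of 378 bases with evm.model.HIC_ASM_13.1902, which stood at 0.404 CPM at stage II D8. Values of these 2 members are uncertain to the extent that their reads were shared.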

How the data were processed

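Total RNA was used for NEBNext Ultra libraries, as the labels' protocols state. Kallisto (a pseudoaligner) is named in the submitters' processing notes; the version, index and build were "not given in the sources used here". The authors deposited a table per library, with an estimated count and a TPM value for each of 22924 models, per the file headers. None of the identifiers (0) occurred in the RefSeq table at hand. Model lengths and effective lengths, in bases, were deposited by the authors beside them.

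Groups and replicates follow the titles. CPM are estimated counts over the library total. For tests, the deposited estimated counts were rounded, filtered by filterByExpr (17225 models), scaled by TMM and fitted for 12 groups together in edgeR 4.0.16 (R 4.3.3) with robust quasi-likelihood F tests, adjusted by Benjamini-Hochberg over all models. Calls required an adjusted p under 0.05. Errors of fold changes come from the F statistic. Ratios of counts have exact binomial intervals. The step was tested on simulated data with changes set in better expressed models only, which does not cover members with few counts. Alternatives were RLE, DESeq2 1.42.0, no filter, the 4 compared libraries alone, a replicate block, limma 3.58.1 on log2(TPM + 1) and log2(TPM + 0.1), left-out libraries and other settings of the rule. The floored medians were added after the data were examined.

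The members, lists and tests were chosen with earlier results of these data known. The naming rule picks extremes of each comparison; since there are 10 members, all are named. Same-numbered libraries did not deviate together (r of -0.03 for A83-01 D16 and control D16, -0.02 for BACL-CHIR99021 and BACL control), so numbers are not treated as pairs.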

Additional observations from a re-analysis of the deposited data

How the results depend on the processing

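The rule gave 10 models, against 29 with TMM-scaled CPM, 4 on TPM, 91 with a ratio of 2, 0 with a ratio of 8, 2 when every stage II D8 library had to exceed every library of the 6 other rule groups 4 times, 3 and 16 on replicates 1 and 2 alone, and 6 to 13 with 1 library left out. The median level in percent of stage II D8 was 8.62, 3.48, 3.08, 25.3 and 4.04 on TPM and 4.54, 1.87, 1.71, 10.6 and 2.23 with TMM-scaled CPM in A83-01 D16, control D16, BACL LB GPiPSC, BACL-CHIR99021 and BACL control, and ran from 2.54 to 7.05, 1.95 to 2.56, 2.31 to 3.51, 18.7 to 20.3 and 2.91 to 4.10 with a library left out. Between BACL-CHIR99021 and BACL control, 8 members were called with the 4 libraries alone, 8 with a replicate block in that fit, and 3 to 5 with a library left out; the replicate block with all libraries gave 5. The median log2 fold change there was 1.44 on log2(TPM + 1), 2.24 on log2(TPM + 0.1), where the median over all models was 0.15 and 0.23, 2.15 with low groups raised to 3 counts, and 3.24 to 3.92 with a library left out. Between A83-01 D16 and control D16, 1 to 4 members were called with a library left out, 3 with the replicate block in the fit of all libraries and 6 in that of the 4 libraries, and the median log2 fold change ran from 0.61 to 0.93 with a library left out and was 0.16 with the replicate block in the 4 libraries, 0.19 with the 4 libraries alone and 0.21 on log2(TPM + 1). There the log2 fold change of evm.model.HIC_ASM_7.2022 ran from -0.77 to 0.28 with a library left out, turning positive without control D16 replicate 1 (0.28) or A83-01 D16 replicate 2 (0.06), and that of evm.model.HIC_ASM_9.966 from -0.12, without A83-01 D16 replicate 2, to 0.47; neither was called in any fit. Of the other values for single members under the alternatives, 189 kept direction and call, 14 lost and 14 gained a call. This tally leaves out evm.model.HIC_ASM_16.2347 between BACL-CHIR99021 and BACL control, with 4 and 0 counts. Its adjusted p there was 0.226 by edgeR and 0.00679 by limma-trend on log2(TPM + 0.1). The cause of these changes was not tested. With a library left out, the variance of the lone one is taken from the remaining groups, and fewer of all models were called in both comparisons. With the replicate block in the 4 libraries, 2945 of 14987 models were called for A83-01 D16, where 7 members were tested. For BACL-CHIR99021 10455 of 14784 models were called in that fit, where 8 members were tested. At these depths 3 counts are 0.201 to 0.348 CPM, so levels below that are not distinguished from 0.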
